A study of Mus musculus with 8 samples.

Results

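Lipoxygenase genes of mouse epidermis were followed in K14-TCL1, Tcl1-/- and WT epidermis. They were taken as every probe set that the deposited table names Alox12, Alox12b, Alox12e, Alox15, Alox8, Aloxe3, Alox5 or Alox5ap, a list of 8 genes. The rule found 8 probe sets for 7 of the genes among the 22690 probe sets of the table, 2 of them for Alox12, and none named Alox5, which was not analysed here. The table has fewer probe sets than the array version named in the methods is known to hold, and which version was used is not settled here, so the number of probe sets for a gene holds for this table only. The samples were epidermal sheets of adult mice, freed from the dermis with dispase, of skin collected 3 days after depilation, which starts hair regrowth and activates keratinocytes (KCs). Each of the 8 arrays read 1 animal. The K14-TCL1 group (3 arrays) carried a human TCL1A transgene under the keratin 14 promoter, which acts in basal KCs, on the Tcl1-/- background. The Tcl1-/- group (3 arrays) carried the deletion of Tcl1 alone, so that both mutant groups lacked the mouse gene. The WT group (2 arrays, where the methods give 3 animals) was C57bl/6. The strain background of the mutant lines and the exact ages are not given in the sources used here.

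Lipoxygenases are iron-containing enzymes that insert oxygen into polyunsaturated fatty acids such as arachidonic and linoleic acid, and most members differ in the position or the stereochemistry of the oxygen they insert. In the epidermis, Alox12b and Aloxe3 act one after the other on the linoleate of acylceramides, a step that is needed for the lipid envelope of the cornified layer and for the water barrier, and loss of either gene causes ichthyosis in humans. Alox12e encodes the epidermal-type enzyme, which in mice is found in the differentiated epidermis and the pilosebaceous unit. Alox12 encodes the platelet-type enzyme, also present in KCs, and Alox8 an enzyme that phorbol ester induces in mouse skin. Alox15 (the leukocyte-type enzyme) and the leukotriene pair Alox5 and Alox5ap are best known from myeloid cells. Alox5ap has no oxygenase activity and hands arachidonic acid to Alox5.

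As a check of the tissue, all 7 basal and all 10 suprabasal and granular KC markers measured were above the filter used for testing, a genotype mean of at least 5 on the log2 scale. Of 6 fibroblast markers 2 passed that filter and of 5 endothelial markers 1 did. The log2 medians of the arrays lay between 6.52 and 6.55, and arrays correlated at 0.998 to 0.999 within genotypes and at 0.995 to 0.996 between them. The Tcl1 probe set read intensities of 35.8, 30.6 and 30.7 in K14-TCL1, 32.2, 33.3 and 32.1 in Tcl1-/- and 31.1 and 29.8 in WT, close to the low end of the scale in every genotype. It therefore checks no label, and whether it lies in the deleted part was not tested.

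In the RefSeq annotation, 6 of the 8 genes lie on chromosome 11, in 2 runs of immediate neighbours among protein-coding genes. Aloxe3, Alox12b and Alox8 form one run, Alox12, Alox12e and Alox15 the other, and 64 protein-coding genes lie between Alox8 and Alox12. Alox5ap is on chromosome 5, Alox5 on chromosome 6 and Tcl1 on chromosome 12. Promoters of 5 of the 8 genes were matched by symbol in the RefSeq table (build GRCm38.p6). Those of Alox12e, Alox12 and Alox12b are printed because these 3 genes had the largest falls of the family between K14-TCL1 and Tcl1-/-. Each is the 250 bases before the annotated start, 5′ to 3′ on the gene's strand, and capitals mark GC boxes (GGGCGG on either strand). Alox12e lies at chr11:70322531-70322780 (minus strand), Alox12 at chr11:70255371-70255620 (minus strand) and Alox12b at chr11:69156822-69157071 (plus strand).
Alox12e: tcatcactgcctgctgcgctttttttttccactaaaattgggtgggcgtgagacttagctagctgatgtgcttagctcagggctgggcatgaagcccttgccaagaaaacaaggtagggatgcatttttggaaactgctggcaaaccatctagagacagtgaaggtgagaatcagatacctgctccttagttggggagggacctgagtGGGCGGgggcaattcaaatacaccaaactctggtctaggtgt
Alox12: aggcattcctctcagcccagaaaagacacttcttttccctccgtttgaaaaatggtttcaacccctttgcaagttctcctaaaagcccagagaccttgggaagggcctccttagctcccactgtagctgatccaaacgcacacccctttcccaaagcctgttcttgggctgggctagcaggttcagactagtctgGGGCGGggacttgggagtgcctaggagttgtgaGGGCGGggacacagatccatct
Alox12b: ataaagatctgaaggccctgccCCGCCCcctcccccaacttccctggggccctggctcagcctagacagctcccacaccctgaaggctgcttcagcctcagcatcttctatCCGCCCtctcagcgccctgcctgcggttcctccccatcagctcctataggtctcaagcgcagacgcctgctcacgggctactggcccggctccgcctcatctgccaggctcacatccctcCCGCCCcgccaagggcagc
The window of Alox12e held 1 GC box, 42 bases before the start, that of Alox12 held 2, at 55 and 22 bases, and that of Alox12b held 3, at 228, 139 and 19 bases. Of 32851 windows of this length in the table, 32.7% hold at least 1. Neither the AP-1 letters TGANTCA (in 6.75% of all windows) nor the TATA box letters TATAAA (in 12.4%) were found on either strand of the 3 windows, which says only that these letters are not in these bases.

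Alox12e, Alox12b, Aloxe3, Alox12 (by the brighter of its 2 probe sets) and Alox5ap had every genotype mean above the filter, from 7.88 to 12.3 on the log2 scale, and were tested. Alox8, Alox15 and the dimmer probe set of Alox12 read at most 21.9 on the intensity scale in every array and were not. Log2 differences are given as the first genotype minus the second, ± SE, from a limma fit over all 8 arrays and 9731 genes. Called means an adjusted p (Benjamini-Hochberg, over all these genes) under 0.05. The intensities are RMA values on the linear scale, which hold no count behind them. Low intensities contain background, which compresses their ratios.

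**Figure D1:**
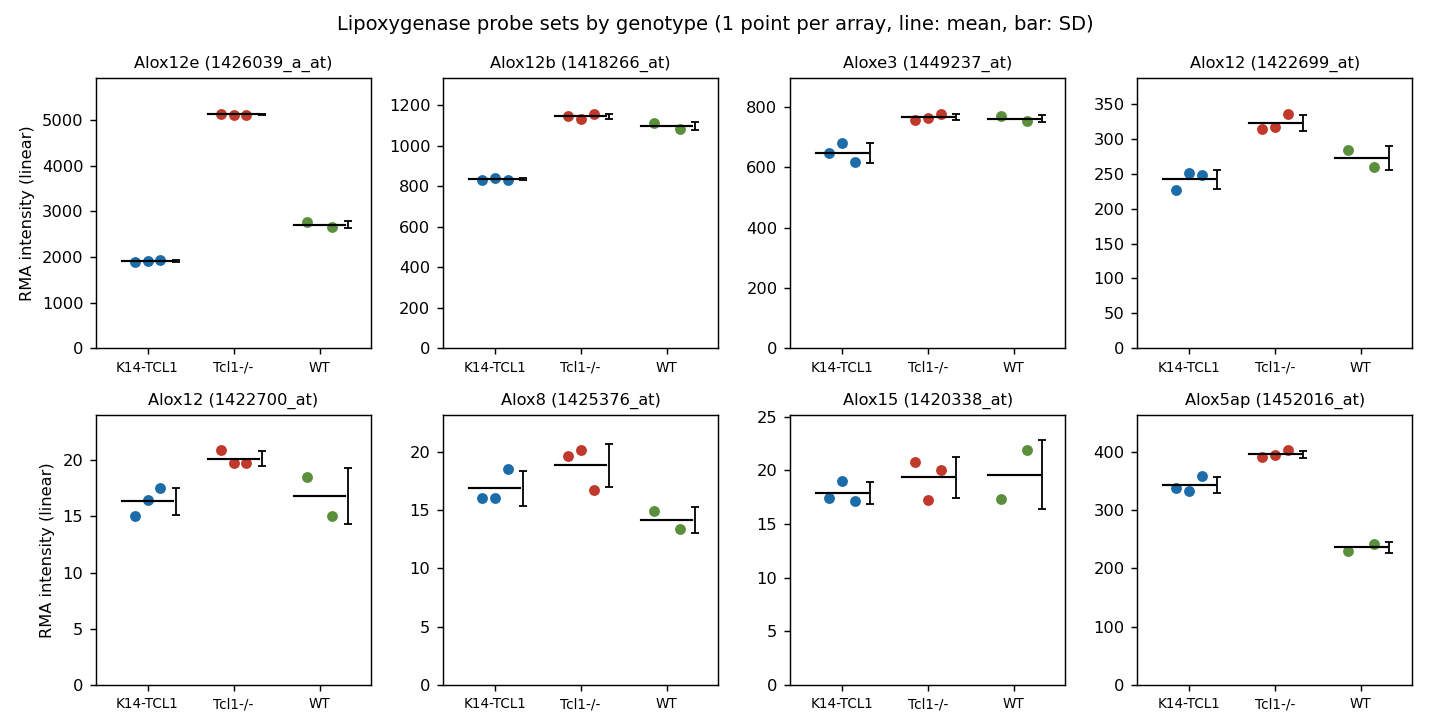
RMA intensity (linear scale, from 0) of the 8 lipoxygenase probe sets in K14-TCL1 (3 arrays), Tcl1-/- (3) and WT (2); points are arrays, lines are means and bars SD. The 3 genotypes do not overlap for Alox12e, between 1898 and 5149, or for Alox5ap, between 229 and 402, while the probe sets of Alox8, Alox15 and the second of Alox12 stay below 22.

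The clearest response of the family was that of Alox12e, the epidermal-type enzyme, which stood on opposite sides of WT in the mutant genotypes. Its intensity was 1898, 1910 and 1942 in K14-TCL1, 5149, 5118 and 5126 in Tcl1-/- and 2769 and 2651 in WT. All Tcl1-/- arrays were above, and all K14-TCL1 arrays below, both WT arrays. Against WT the gene was lower in K14-TCL1 by a log2 difference of -0.50 ± 0.036 (a ratio of 0.707, adjusted p = 5.37e-05) and higher in Tcl1-/- by 0.92 ± 0.036 (1.89-fold, adjusted p = 1.07e-06). Set directly against each other, K14-TCL1 was at 0.374 times the Tcl1-/- level (-1.42 ± 0.032, adjusted p = 3.81e-08), the 28th largest difference in either direction among the 9731 genes. In whole epidermal sheets, fewer cells of a type and less RNA in each cell cannot be told apart.

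The genes of the barrier pair were both lower in K14-TCL1, and neither was called between Tcl1-/- and WT. Alox12b, which starts the oxidation of the acylceramide, read 831, 839 and 831 in K14-TCL1, 1146, 1132 and 1158 in Tcl1-/- and 1111 and 1083 in WT. The K14-TCL1 arrays lay well below all others, and the lowest Tcl1-/- array was only just above the higher WT array. Its log2 differences were -0.40 ± 0.034 for K14-TCL1 against WT (adjusted p = 0.000145), 0.063 ± 0.034 for Tcl1-/- against WT (adjusted p = 0.214, 95% interval -0.015 to 0.14) and -0.46 ± 0.030 for K14-TCL1 against Tcl1-/- (adjusted p = 3.43e-05).

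Aloxe3, whose product turns the hydroperoxide made by Alox12b into an epoxyalcohol, had the same order with a smaller step. It read 647, 680.2 and 616 in K14-TCL1, 758, 764 and 778 in Tcl1-/- and 771 and 753 in WT. Here the arrays of Tcl1-/- and WT overlapped and those of K14-TCL1 did not reach them. The differences were -0.24 ± 0.047 for K14-TCL1 against WT (adjusted p = 0.00942), 0.0098 ± 0.047 for Tcl1-/- against WT (adjusted p = 0.905, 95% interval -0.097 to 0.12) and -0.24 ± 0.042 for K14-TCL1 against Tcl1-/- (adjusted p = 0.00413). Without WT replicate 1 the difference between K14-TCL1 and WT was -0.22 and missed the threshold (adjusted p = 0.0729).

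Alox12, the platelet-type enzyme, was highest in Tcl1-/-. Its intensity was 227, 251 and 248 in K14-TCL1, 315, 317 and 336 in Tcl1-/- and 285 and 259.99 in WT, with no overlap between any of the genotypes. K14-TCL1 was lower than Tcl1-/- by -0.42 ± 0.055 (adjusted p = 0.00125), and Tcl1-/- was higher than WT by 0.25 ± 0.061 (adjusted p = 0.0190). K14-TCL1 against WT gave -0.17 ± 0.061 and was not called (adjusted p = 0.0855, 95% interval -0.31 to -0.029). Both WT comparisons turn on single arrays or settings: Tcl1-/- against WT was not called without WT replicate 2 (0.18, adjusted p = 0.143), without Tcl1-/- replicate 3 (0.22, adjusted p = 0.0568) or with the replicate number as a block (0.22, adjusted p = 0.0615), and K14-TCL1 against WT was called with array weights (-0.20, adjusted p = 0.0410) and with a prior variance that follows the intensity (adjusted p = 0.0475). The dimmer probe set read only 15.1, 16.5 and 17.5 in K14-TCL1, 20.9, 19.7 and 19.8 in Tcl1-/- and 18.5 and 15.1 in WT. In a fit of every named probe set without a filter it gave -0.30 for K14-TCL1 against Tcl1-/- (adjusted p = 0.0523), and it passed in no comparison.

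Platelets are the best known source of Alox12. Of 6 platelet and megakaryocyte markers measured, 2 passed the filter. Their summed intensity was 192 to 208 in K14-TCL1, 205 to 218 in Tcl1-/- and 229 in both WT arrays. Itga2b and Gp9, the 2 markers, were not called in Tcl1-/- against WT (adjusted p = 0.160 and 0.400) or in K14-TCL1 against Tcl1-/-. In K14-TCL1 against WT, Itga2b was lower (adjusted p = 0.0189), as were 9.84% of all tested genes, and Gp9 was not called. The part of platelets in the Alox12 values was not tested.

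Alox5ap, the activating protein of the leukotriene pathway, was the tested member that was called higher than WT in both mutant genotypes. It read 337, 333 and 357 in K14-TCL1, 390.3, 394 and 402 in Tcl1-/- and 229 and 242 in WT. The groups did not overlap, and the WT arrays were the lowest. The log2 differences were 0.54 ± 0.045 for K14-TCL1 against WT (1.45-fold, adjusted p = 0.000127), 0.75 ± 0.045 for Tcl1-/- against WT (1.68-fold, adjusted p = 1.45e-05) and -0.21 ± 0.040 for K14-TCL1 against Tcl1-/- (a ratio of 0.866, adjusted p = 0.00729). Both comparisons against WT use the same 2 WT arrays, here as for every other gene.

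Myeloid cells, the best known source of Alox5ap, have markers that differed between the genotypes too. Of 9 tested pan-leukocyte and myeloid markers, 8 were higher in K14-TCL1 than in WT and 8 were higher in Tcl1-/- than in WT, where 11.7% and 14.4% of all tested genes were higher. Their summed intensity was 2811 to 2847 in K14-TCL1, 3092 to 3220.4 in Tcl1-/- and 2261 to 2287 in WT. That is a mean of 1.25 times the WT level in K14-TCL1 and 1.39 times in Tcl1-/-, against 1.45 and 1.68 times for Alox5ap itself. Of 7 Langerhans cell markers, 4 were higher and 1 was lower in K14-TCL1 than in WT, and 5 were higher in Tcl1-/-. Their sum was 8998 to 9025 in K14-TCL1, 10599.7 to 11065 in Tcl1-/- and 8205 to 8517 in WT. Cd207 of this list was not called in K14-TCL1 against WT (0.0023 ± 0.045, adjusted p = 0.979). It was higher in Tcl1-/- than in WT (0.17 ± 0.045, adjusted p = 0.0238). Of 4 tested macrophage and monocyte markers, 2 were higher in K14-TCL1 and 3 in Tcl1-/- than in WT, with a sum of 1183 to 1227 in K14-TCL1, 1372 to 1419.8 in Tcl1-/- and 1008 to 1058 in WT. The 2 higher in K14-TCL1, Adgre1 and Csf1r, are also in the pan-leukocyte and myeloid list, so the lists are not separate readings. Cd68 was higher than WT in Tcl1-/- only (0.18 ± 0.044, against -0.053 ± 0.044 in K14-TCL1). C1qa was not called against WT in K14-TCL1 (0.22 ± 0.069) or in Tcl1-/- (-0.14 ± 0.069). Markers of granulocytes were at the low end: 8 of 9 measured mast cell markers, 7 of 8 neutrophil markers and all 4 measured eosinophil markers did not pass the filter, and the neutrophil marker that did, Cxcr2, was lower than WT in K14-TCL1 (-0.39 ± 0.086) and in Tcl1-/- (-0.32 ± 0.086). The part of leukocyte number in the Alox5ap values was not tested.

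**Figure D2:**
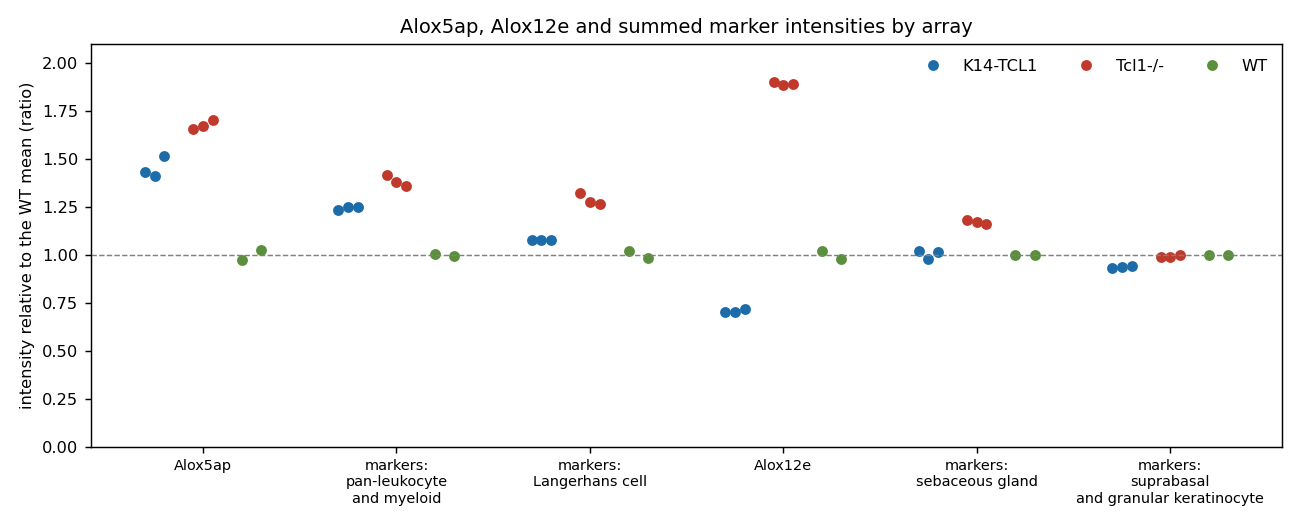
Intensity of Alox5ap and Alox12e and summed intensities of marker lists, each as a ratio to its WT mean (vertical axis, from 0), in every array of K14-TCL1, Tcl1-/- and WT. Leukocyte markers and Alox5ap are above WT in both mutant genotypes, whereas Alox12e is at 0.700 to 0.717 in K14-TCL1 and at 1.89 to 1.90 in Tcl1-/-.

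Alox12e was set beside markers of the structures that express it. Of 8 sebaceous gland markers, 7 were lower in K14-TCL1 than in Tcl1-/-, as were 13.9% of all tested genes. Against WT, 2 were higher and 1 lower in K14-TCL1, as were 11.7% and 9.84% of all tested genes. In Tcl1-/- 6 were higher than in WT, as were 14.4% of all tested genes. Their summed intensity was a mean of 1.00 times the WT level in K14-TCL1 and 1.17 times in Tcl1-/-, where Alox12e was at 0.707 and 1.89 times. Of 8 hair follicle markers, 1 was lower in K14-TCL1 than in Tcl1-/-, as were 13.9% of all tested genes. Against WT, 4 were higher and none lower in K14-TCL1 (11.7% and 9.84% of all tested genes). In Tcl1-/- 4 were higher and 2 lower than in WT (14.4% and 12.2%). The sum of the hair follicle markers was a mean of 1.02 times the WT level in K14-TCL1 and 1.14 times in Tcl1-/-. For the suprabasal and granular KC markers, which share the layers of Alox12b and Aloxe3, 4 of 10 fell and 2 rose in K14-TCL1 against WT, 5 fell and 1 rose in K14-TCL1 against Tcl1-/-, and their sum was a mean of 0.938 times the WT level in K14-TCL1 and 0.991 times in Tcl1-/-. Alox12b was at 0.760 and Aloxe3 at 0.850 times the WT level in K14-TCL1. The part of cell composition in these values was not tested.

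Alox8 and Alox15 stayed near the low end of the scale. Alox8 read 16.01, 16.03 and 18.6 in K14-TCL1, 19.7, 20.2 and 16.8 in Tcl1-/- and 14.9 and 13.4 in WT. All arrays of both mutant genotypes were above both WT arrays. Of all tested genes, 50.6% and 57.7% had no overlap with WT in K14-TCL1 and in Tcl1-/-. Without the filter, over all named probe sets, its differences were 0.25 ± 0.10 for K14-TCL1 against WT (adjusted p = 0.170), 0.41 ± 0.10 for Tcl1-/- against WT (adjusted p = 0.0327) and -0.16 ± 0.090 for K14-TCL1 against Tcl1-/- (adjusted p = 0.296). Alox15 read 17.4, 19.0 and 17.1 in K14-TCL1, 20.8, 17.2 and 20.04 in Tcl1-/- and 17.3 and 21.9 in WT, with overlap between all genotypes and no adjusted p under 0.530 in that fit.

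Across the family, the K14-TCL1 epidermis had the lower value of all 5 tested genes against Tcl1-/-. The 5 were called lower, where 26.6% of the 9731 genes were called and 13.9% were called lower, and the median difference was -0.42 for the 5 genes and -5.57e-05 for all genes. Against WT, 3 of the 5 were lower in K14-TCL1 (Alox12e, Alox12b and Aloxe3), 1 was higher (Alox5ap) and 1 was not called, where 21.5% of all genes were called, 11.7% higher and 9.84% lower. In Tcl1-/- against WT, 3 were higher (Alox12e, Alox5ap and Alox12), none was lower and 2 were not called, where 26.6% were called, 14.4% higher and 12.2% lower. The arrays did not overlap for all 5 genes in K14-TCL1 against Tcl1-/- (42.7% of all genes) and in K14-TCL1 against WT (50.6%), and for 4 of 5 in Tcl1-/- against WT (57.7%). The genes were chosen with such values known, so these counts describe the family and test nothing about it.

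**Figure D3:**
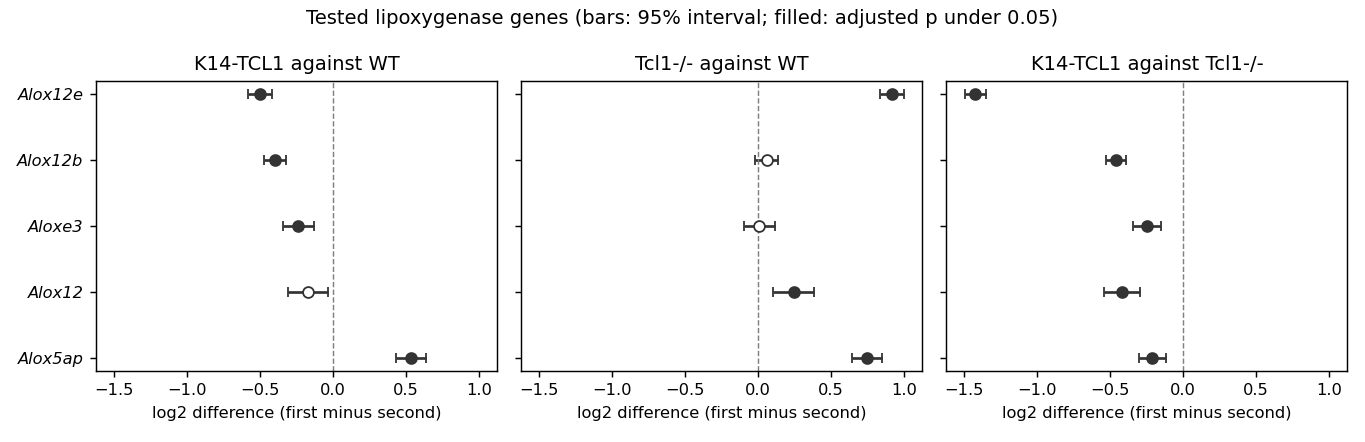
Log2 difference (horizontal axis, first genotype minus second) of the 5 tested lipoxygenase genes in the 3 comparisons, with 95% intervals from limma; filled points passed an adjusted p of 0.05. All 5 genes lie below 0 in K14-TCL1 against Tcl1-/-, from -1.42 for Alox12e to -0.21 for Alox5ap, and Alox12e and Alox5ap lie farthest from 0 in Tcl1-/- against WT.

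The profiles of the 5 genes over the 8 arrays were compared with those of the other 9730 tested genes by the root mean square distance of log2 values centred on each gene's mean. Nearest to Aloxe3 were Fam120a, Mob1a and Tuft1 (0.024, 0.025 and 0.029), nearest to Alox12b were Tmem229b, Lgalsl and Fam110a (0.032, 0.042 and 0.052), and nearest to Alox12 were Fnbp1, Tjp3 and Igfbp7 (0.042, 0.053 and 0.055). Among those nearest to Alox5ap were Ephb2 (0.050) and Mesp2 (0.065). No gene came so close to Alox12e, which itself varied the most (SD over arrays of 0.67). The nearest were Pam (0.21), Egln3 (0.28) and Ifitm6 (0.29), which shared its higher level in Tcl1-/- than in WT (1.08 for Pam, 1.03 for Egln3 and 0.91 for Ifitm6), but had differences of -0.0015, 0.13 and 0.084 between K14-TCL1 and WT, where Alox12e had -0.50. The distance describes these arrays, which share 1 normalization, and carries no test.

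The counts of the lists around the family stand beside 21.5% of all genes called in K14-TCL1 against WT and 26.6% in each of Tcl1-/- against WT and K14-TCL1 against Tcl1-/-. They describe the lists, without a test. The release of the substrate was read from phospholipase A2 genes, of which 13 of 16 measured were tested. Against WT, 2 were higher and 3 lower in K14-TCL1, and 2 were higher and 2 lower in Tcl1-/-, with medians of -0.10 and -0.030, so that 4 of 13 were called in Tcl1-/-, near the share of all genes. Pla2g2f, the main secreted enzyme of suprabasal KCs, averaged 2915 ± 117 in K14-TCL1 (SD, n = 3), 2727 ± 48.5 in Tcl1-/- (n = 3) and 3741 ± 8.56 in WT (n = 2), with log2 differences from WT of -0.36 ± 0.043 (adjusted p = 0.000798) and -0.46 ± 0.043 (adjusted p = 0.000148). The cytosolic Pla2g4f was likewise lower than WT in K14-TCL1 (-0.31 ± 0.045) and in Tcl1-/- (-0.29 ± 0.045). The calcium-independent Pla2g6 was higher (0.25 ± 0.054 in K14-TCL1 and 0.38 ± 0.054 in Tcl1-/-), as was Plaat3, a phospholipase A of adipose tissue (0.26 ± 0.041 and 0.42 ± 0.041 in the same order). Between K14-TCL1 and Tcl1-/-, only Plaat3 of the 13 was called (-0.16 ± 0.037, adjusted p = 0.0153).

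Of the genes of leukotriene synthesis and its receptors, the 4 with the smallest adjusted p were Ltc4s, Mgst2 and Mgst3, higher than WT in both mutant genotypes, and Ltb4r1, lower than WT in both. Ltc4s, the synthase that couples leukotriene A4 to glutathione, averaged 109 ± 0.871 in K14-TCL1, 110.1 ± 2.83 in Tcl1-/- and 80.1 ± 5.79 in WT, and was higher by 0.45 ± 0.049 in K14-TCL1 (adjusted p = 0.000526) and by 0.46 ± 0.049 in Tcl1-/- (adjusted p = 0.000306). Mgst2 and Mgst3, microsomal glutathione transferases of the same protein family, differed from WT by 0.38 ± 0.039 and 0.52 ± 0.062 in K14-TCL1 and by 0.48 ± 0.039 and 0.20 ± 0.062 in Tcl1-/-. Ltb4r1, the high-affinity receptor, was at 350.3 ± 6.89 in K14-TCL1, 366 ± 1.85 in Tcl1-/- and 468 ± 5.67 in WT, which is lower by -0.42 ± 0.035 and -0.36 ± 0.035 (adjusted p = 0.000124 and 0.000189). In all, against WT 4 of 9 tested genes of this list were higher and 2 lower in K14-TCL1, and 4 higher and 4 lower in Tcl1-/-, and 3 were higher and none lower in K14-TCL1 than in Tcl1-/-, with medians of 0.022, -0.061 and 0.031.

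The cyclooxygenase branch competes for the same arachidonic acid. Its genes Ptgs2 and Ptges, the latter of a prostaglandin E synthase, were lower and higher in K14-TCL1 than in Tcl1-/- (-0.78 ± 0.075 and 0.67 ± 0.046). Of other prostaglandin E synthase genes, Ptges2 was not called there (-0.0063 ± 0.061) and Ptges3 was higher (0.16 ± 0.041). Ptgs2, the inducible cyclooxygenase gene, was at 68.2 ± 1.45 in K14-TCL1, 118 ± 12.9 in Tcl1-/- and 97.1 ± 4.62 in WT, so that it stood to WT as Alox12e did: lower in K14-TCL1 (-0.51 ± 0.084, adjusted p = 0.00420) and higher in Tcl1-/- (0.27 ± 0.084, adjusted p = 0.0429). Ptges was at 291 ± 16.1 in K14-TCL1, 182 ± 4.83 in Tcl1-/- and 285 ± 1.12 in WT, lower in Tcl1-/- than in WT by -0.65 ± 0.051 (adjusted p = 5.93e-05) and not called in K14-TCL1 against WT (0.027 ± 0.051, adjusted p = 0.742). Slco2a1, a prostaglandin transporter, was lower than WT in both (-0.22 ± 0.039 in K14-TCL1 and -0.41 ± 0.039 in Tcl1-/-), and Ptgr1, which inactivates prostaglandins and leukotriene B4, higher in both (0.14 ± 0.035 and 0.30 ± 0.035). Of 18 tested genes of the branch, against WT 3 were higher and 4 lower in K14-TCL1, and 2 higher and 5 lower in Tcl1-/-, and 5 were higher and 2 lower in K14-TCL1 than in Tcl1-/-, with medians of -0.021, -0.063 and 0.045.

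The lists that surround Alox12b and Aloxe3 were mixed. Of 16 tested acylceramide and lipid envelope genes, against WT 3 were higher and 4 lower in K14-TCL1, and 4 higher and 4 lower in Tcl1-/-, and 2 were higher and 4 lower in K14-TCL1 than in Tcl1-/-, with medians of -0.038, -0.049 and -0.023. Degs2, a ceramide desaturase and hydroxylase, had the opposite directions to Alox12e in all 3 comparisons, at 329 ± 11.7 in K14-TCL1, 135 ± 4.96 in Tcl1-/- and 194 ± 2.52 in WT. Its larger step from WT was in K14-TCL1, that of Alox12e in Tcl1-/-. It was higher than WT in K14-TCL1 (0.76 ± 0.047, adjusted p = 2.34e-05), lower in Tcl1-/- (-0.52 ± 0.047, adjusted p = 0.000109) and 2.43 times higher in K14-TCL1 than in Tcl1-/-. Dgat2, Fa2h and Acsl4, genes of triglyceride, hydroxylated ceramide and acyl-CoA synthesis, were lower in K14-TCL1 than in Tcl1-/- (-0.30 ± 0.031, -0.35 ± 0.041 and -0.19 ± 0.051). Against WT they were not alike. Dgat2 was lower in K14-TCL1 (-0.15 ± 0.034) and higher in Tcl1-/- (0.15 ± 0.034). Fa2h was not called in K14-TCL1 (-0.059 ± 0.046) and was higher in Tcl1-/- (0.29 ± 0.046). Acsl4 was higher in both (0.32 ± 0.057 in K14-TCL1 and 0.50 ± 0.057 in Tcl1-/-). Of 9 genes that reduce hydroperoxides or hydrolyse epoxides, against WT 3 were higher and none lower in K14-TCL1, and 2 higher and 2 lower in Tcl1-/-, and 3 were higher and none lower in K14-TCL1 than in Tcl1-/-, with medians of 0.12, 0.12 and 0.032. Among them Prdx6, a peroxiredoxin that acts on phospholipid hydroperoxides, was higher in K14-TCL1 than in Tcl1-/- by 0.22 ± 0.036, as was the glutathione peroxidase gene Gpx1, by 0.22 ± 0.033. Ephx1, a microsomal epoxide hydrolase gene, was lower in Tcl1-/- than in WT (-0.20 ± 0.041), and Gpx7, a weakly read peroxidase gene, was higher there (0.28 ± 0.063).

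Of 7 measured receptors of lipoxygenase products and resolvins, 3 passed the filter. Ppara, a nuclear receptor that fatty acids and some of their oxidized forms activate, was higher in K14-TCL1 (277 ± 8.24) and in Tcl1-/- (265 ± 15.3) than in WT (186 ± 17.6), by 0.57 ± 0.068 (adjusted p = 0.000795) and 0.51 ± 0.068 (adjusted p = 0.00107). Gpr37 was higher than WT in both as well (0.27 ± 0.081 in K14-TCL1 and 0.42 ± 0.081 in Tcl1-/-). Pparg, the receptor of adipocytes and sebocytes, was lower in K14-TCL1 than in Tcl1-/- (-0.26 ± 0.072, adjusted p = 0.0289) and was not called against WT in either. The medians of the 3 genes were 0.27 in K14-TCL1 against WT, 0.42 in Tcl1-/- against WT and -0.14 in K14-TCL1 against Tcl1-/-.

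**Figure D4:**
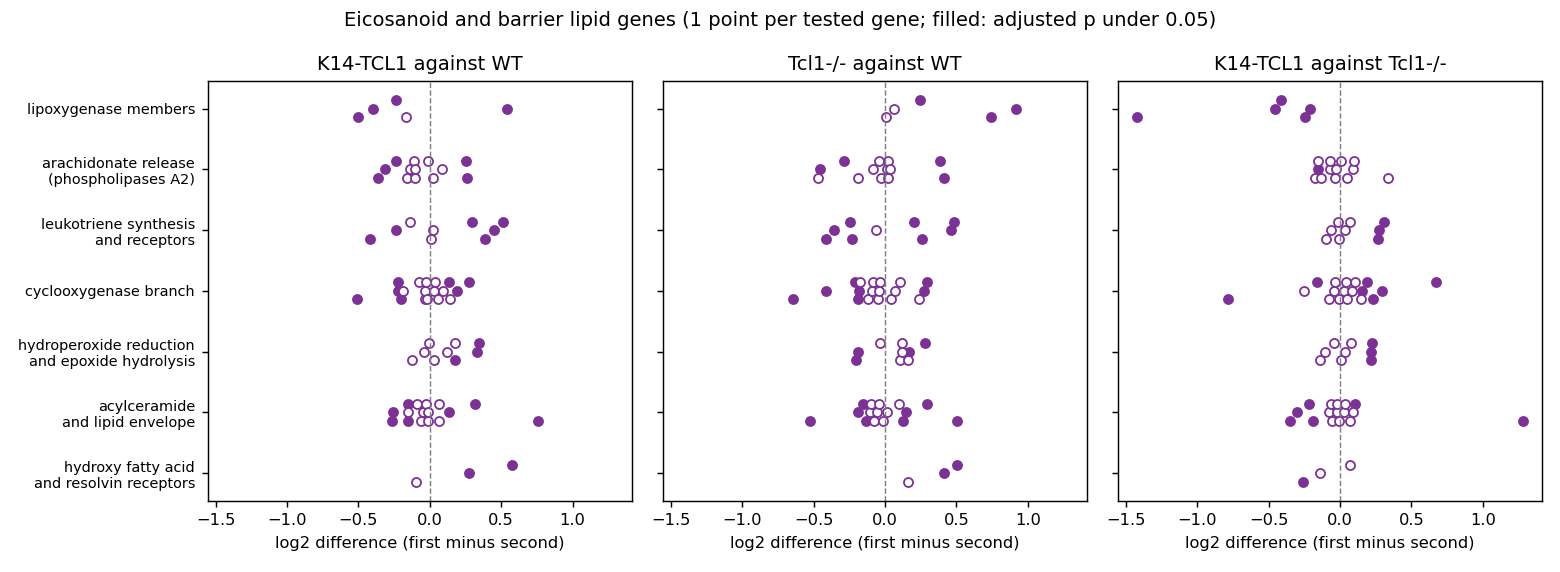
Log2 difference (horizontal axis, first genotype minus second) of every tested gene of the lipoxygenase family and of 6 lists around it, in the 3 comparisons; filled points passed an adjusted p of 0.05. The lipoxygenase genes all lie left of 0 in K14-TCL1 against Tcl1-/-, while each of the other lists with over 3 tested genes has points on both sides of 0 there, with Degs2 at 1.28 and Ptgs2 at -0.78.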

How the data were processed

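Total RNA of epidermal sheets was hybridized by the authors to Affymetrix mouse expression arrays. The submitters' processing notes name RMA (a method of background correction, quantile normalization across arrays and probe set summary) but no version of it. The deposited intensity values are on the linear scale, from 4.92 to 20952, and equal those of the series matrix in all 22690 probe sets. They were taken to log2 with no pseudocount and not normalized again. Their depth is unknown, and the number of arrays limits the precision.

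Probe sets with 1 gene name (21556, for 13201 genes) were kept, older symbols were updated with RefSeq (GRCm38.p6), and the probe set with the highest mean stood for a gene. Genes with a highest genotype mean of at least 5 (log2), 9731 in all, entered 1 limma fit (version 3.58.1, R 4.3.3) of the 3 genotype means, adjusted by Benjamini-Hochberg in each comparison. The methods used a random variance model with an unadjusted p under 0.001, and also estimated a false discovery rate for each gene. The p threshold and fold filter of the methods were run as an alternative, but with limma in place of that model. Other alternatives were changes of the filter, the probe set of a gene, the scaling and the variance model, a replicate block and single arrays left out. The same fit was also run on simulated data with known changes, whose means and spread were taken from the finished fit. P-values set a genotype difference against the spread between animals within genotypes, pooled over the 3 genotypes and moderated over genes. They cannot separate genotype from strain, litter or preparation.

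The members, lists and tests were chosen with earlier results of these data known. The text names all members, up to 4 called genes of each list by smallest adjusted p, and the 3 genes nearest in profile to each member called in at least 2 comparisons. One gene that this rule names is not reported here, and Cxcr2, Itga2b and Gp9, the tested markers of their lists, were named after their values were seen. Promoters come from RefSeq. Python 3.11.15 with matplotlib 3.10.9 drew the figures.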

Additional observations from a re-analysis of the deposited data

How the results depend on the processing

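In K14-TCL1 against Tcl1-/- all 5 tested genes were called lower under every alternative but the criteria of the methods. Those criteria (20% of arrays at least 1.4-fold from a probe set's median, with an unadjusted p under 0.001) removed small differences and left 1 lipoxygenase gene in that comparison (Alox12e), 2 in K14-TCL1 against WT and 2 in Tcl1-/- against WT (Alox12e and Alox5ap in each), of 228, 226 and 274 probe sets. With single arrays left out, the calls of the family ran from 3 to 4 in K14-TCL1 against WT, from 2 to 3 in Tcl1-/- against WT and were 5 in K14-TCL1 against Tcl1-/-. Those of all genes ran from 973 to 2197, from 1415 to 2913 and from 1781 to 2579, and were lowest without a WT array in the comparisons with WT (973 and 1055 for K14-TCL1, 1415 and 1575 for Tcl1-/-), where the 1 WT array left is assumed to vary like the other groups. The difference of Aloxe3 between Tcl1-/- and WT turned to -0.0056 with array medians set equal, and ran from -0.0072 to 0.027 with single arrays left out; it was called in no setting. Replicate numbers did not pair the arrays: same-numbered arrays of different genotypes correlated at -0.061 to 0.057 in their deviations. With the replicate number as a block, 4, 2 and 5 lipoxygenase genes were called (K14-TCL1 against WT, Tcl1-/- against WT, K14-TCL1 against Tcl1-/-), of 1540, 2048 and 2130 genes, and the Alox12 call against WT was the only one of the family to change. Without a filter Alox8 was called higher in Tcl1-/- than in WT.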
